A study of Mus musculus with 8 samples.

Results

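The genes described here encode 10 receptors and bridging proteins of efferocytosis, the uptake of dying cells by phagocytes. They were taken by symbol from the annotation of the array, which gave 17 probe sets that carry only that symbol, out of 22626 probe sets tested, and all 10 genes were measured. The cells were splenic CD11b+Gr-1+ immature myeloid cells (IMCs) of 4 male *Tff2*-/- mice on a C57BL/6 background, aged 16 weeks, which had drunk water with 3% dextran sodium sulfate (DSS) for 5 days, an agent that injures the colon, and then plain water. The sorted cells of each mouse were divided and kept for 7 days either in GM-CSF (Csf2, 5 nM per the labels, while the study's methods give a different, lower dose) plus 3 μM mouse recombinant TFF2 (rTFF2) or in GM-CSF alone, which gave 4 cultures in each group, and the comparison asks what rTFF2 did to cells that also received GM-CSF. All 8 cultures lacked *Tff2* and came from DSS-treated mice, so neither a wild-type nor an untreated mouse stands among them, and each culture is 1 array. The genes were selected on symbol with their log2 differences between these groups already known, so those differences chose them in part. Differences between the groups are therefore given as a description of these cultures. A gene is said to rise or fall where its adjusted p from limma, over all 22626 probe sets, was under 0.05. That fit did not pair the cultures by mouse. Results with the mouse as a block are given for the counts and for member genes above background. Of the other named genes they are given where the call was seen to change.

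Dying cells display phosphatidylserine on their outer surface, and phagocytes find it either with receptors that bind it or through soluble bridging proteins. *Axl*, *Mertk* and *Tyro3* encode the TAM receptor tyrosine kinases, which are reached through the bridging proteins *Gas6* and *Pros1* (protein S). MFG-E8, the product of *Mfge8*, joins phosphatidylserine to the integrins αvβ3 and αvβ5, made from *Itgav*, *Itgb3* and *Itgb5*, while stabilin-1, the product of *Stab1*, is a scavenger receptor that binds phosphatidylserine itself. In mouse macrophages *Mertk* is known for quiet clearance of apoptotic cells, and *Axl* is known as an inducible member of the family in dendritic cells and inflamed tissue.

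With rTFF2, *Mfge8* fell 14.1-fold and *Axl* 10.9-fold on average and *Stab1* rose 7.73-fold, with all 4 mice in that direction for each. *Mertk* rose 1.79-fold and *Gas6*, at background with GM-CSF alone, at least 1.57-fold. All of these also passed with the mouse as a block (adjusted p from limma between 2.9e-05 and 0.00069). The integrin genes *Itgav* and *Itgb5* lay modestly higher, with calls that depended on the probe set and on pairing by mouse. Neither gene passed with a measure of RNA quality as a covariate, and some *Itgb5* values then turned sign. That measure, described below, itself parted the groups. *Tyro3* and *Itgb3* lay at background in all 8 cultures. Of the 17 probe sets 6 rose and 2 fell, against 21.8% of all probe sets called in either direction, 11.7% higher and 10.1% lower. Taking for each gene the probe set with the highest mean, 3 of 10 genes rose and 2 fell, against 23.6% of 12393 genes. Blocking on mouse, 9 member probe sets rose and 2 fell. Of all 22626 probe sets 5811 were then called in place of 4927, 3095 higher and 2716 lower. With that blocking 5 of 10 genes rose and 2 fell, and the share over all genes is not given for that fit. Groups did not overlap for 8 of the 17 probe sets, against 25.5% of all probe sets. Of the 12 probe sets with a group mean above background 8 were called, against 33.4% of such probe sets, and 4 of the 17 were called and over 2-fold, against 3.41%. As the genes were chosen with this contrast known, these counts stand only as a description. The median difference was 0.36 on the log2 scale over the 17 probe sets and -0.02 over all probe sets.

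The sequence before the transcription start is shown for the gene with the steepest fall, *Mfge8*, and for the rising receptor genes *Stab1* and *Mertk*, so that the reader has the promoters of genes that moved in opposite directions side by side. They come from RefSeq, build GRCm38.p6, where 9 of the 10 genes had an entry, and *Itgb3* is named only. The stretches are chr7:79149061-79149310 on the minus strand for *Mfge8*, chr14:31168652-31168891 on the minus strand for *Stab1* and chr2:128698665-128698914 on the plus strand for *Mertk*, each ending just before the annotated gene. Capitals mark GC boxes, the letters GGGCGG read on either strand.
Mfge8: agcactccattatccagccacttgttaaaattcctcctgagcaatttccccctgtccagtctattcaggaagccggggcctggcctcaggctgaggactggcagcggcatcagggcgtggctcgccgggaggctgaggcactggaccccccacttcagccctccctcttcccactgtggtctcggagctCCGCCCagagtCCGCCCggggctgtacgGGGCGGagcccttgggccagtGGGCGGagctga
Stab1: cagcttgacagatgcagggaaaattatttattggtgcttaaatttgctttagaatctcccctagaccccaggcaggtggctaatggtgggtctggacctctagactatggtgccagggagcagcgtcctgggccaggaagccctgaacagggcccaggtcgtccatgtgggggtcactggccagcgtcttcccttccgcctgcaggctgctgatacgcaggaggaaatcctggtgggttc
Mertk: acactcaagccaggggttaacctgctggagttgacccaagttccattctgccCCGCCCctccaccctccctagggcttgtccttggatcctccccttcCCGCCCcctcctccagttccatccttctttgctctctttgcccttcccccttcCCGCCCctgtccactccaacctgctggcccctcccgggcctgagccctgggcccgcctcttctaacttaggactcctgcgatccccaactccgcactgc
The stretch of *Mfge8* held 4 GC boxes and that of *Mertk* 3, and the stretch of *Stab1* held none, so a gene that fell and a gene that rose both carried them. Within the 250 bases before the start, a GC box stood in 7 of the 9 windows, against 32.7% of 32851 windows of the same length. The PU box letters GAGGAAG stood in 2 of 9, those of *Axl* and *Itgav*, against 10.6% of all windows. No member window held the AP-1 letters TGANTCA, the TATA letters TATAAA, the E-box CACGTG or the cAMP response element TGACGTCA, which stood in 6.75%, 12.4%, 6.02% and 1.55% of all windows in this order. Both strands were searched, matches that overlap were counted each, and GC boxes and PU boxes shared no bases in these windows. The share of G and C was 65.2% in the *Mfge8* window, 57.2% in that of *Stab1* and 63.6% in that of *Mertk*, against a median of 52.4%. For *Axl* 191 of the 250 bases lie inside the bounds of the annotated gene, and for *Itgav* and *Tyro3* all 250 do, since the annotated bounds begin further upstream. None of these is printed, and the PU boxes counted above are those of *Axl* and *Itgav*.

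The CD11b gene *Itgam* lay between 12.56 and 12.87 with rTFF2 and between 12.14 and 12.54 with GM-CSF alone, on the log2 scale of the deposited GCRMA signals, and *Tff2* lay between 2.22 and 2.31 and between 2.37 and 2.62. Signals of 49 genes of other tissues had a 95th percentile of 3.40, used here as the background level. Genes of Gr-1 itself were not analysed here. Of the marker lists, 11 of 13 measured dendritic cell genes fell and none rose. In the neutrophil list 10 of 11 rose, and in that of basophils and mast cells 7 of 11. Of eosinophil genes 3 of 6 rose and of megakaryocyte and platelet genes 3 of 6, and no gene of these lists fell. Of 12 macrophage genes 2 rose and 2 fell. Over all genes 12.4% rose and 11.2% fell. The dendritic cell gene *Cd209a* fell, and *Il4* of the basophil and mast cell list rose, while at background in both groups. The mast cell protease genes *Tpsb2*, *Cma1* and *Mcpt4* of that list lay at background and were not called. The log2 of the summed signal of the dendritic cell list lay between 12.97 and 13.52 with rTFF2 and between 14.82 and 15.17 with GM-CSF alone, and that of the basophil and mast cell list between 12.06 and 12.94 and between 7.72 and 9.01. For neutrophil genes the sums lay between 16.27 and 16.49 with rTFF2 and between 14.83 and 15.91 with GM-CSF alone, for eosinophil genes between 12.11 and 13.41 and between 9.66 and 11.69, and for megakaryocyte and platelet genes between 13.37 and 13.56 and between 11.01 and 12.22. For macrophage genes they lay between 15.18 and 15.35 and between 14.85 and 15.27, and overlapped. In bulk cultures fewer cells of a type and less RNA per cell cannot be told apart, and the part of these shifts in the results that follow was not tested. The 3′ signal minus the 5′ signal of *Actb* is called its 3′/5′ gap here and is a measure of RNA quality. It lay between 0.66 and 0.74 with rTFF2 and between 0.42 and 0.62 with GM-CSF alone (exact permutation test, two-sided, p = 0.029). That p is the lowest value possible with 4 arrays against 4. The same gap of *Gapdh* lay between 0.22 and 0.29 with rTFF2 and between 0.13 and 0.31 with GM-CSF alone, and overlapped. Its mean difference was 0.04 (exact permutation test, two-sided, p = 0.4). The *Gapdh* gap therefore did not part the groups as the *Actb* gap did.

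*Axl* fell in every mouse. Its main probe set, 1423586_at, had log2 signals of 5.14, 6.67, 6.35 and 6.70 in the rTFF2 cultures of mice 1 to 4, against 9.61, 9.10, 10.02 and 9.91 with GM-CSF alone. The highest rTFF2 culture lay 2.39 below the lowest control culture, and the rTFF2 culture of mouse 1 stood below the other rTFF2 cultures. The means were 6.22 ± 0.73 with rTFF2 and 9.66 ± 0.41 with GM-CSF alone (SD, n = 4 mice each), a difference of -3.44 (standard error 0.34) or 10.9-fold, with differences within a mouse between -4.46 in mouse 1 and -2.43 in mouse 2. With the *Actb* gap as a covariate the fall was 20.4-fold. The second *Axl* probe set, 1438621_x_at, lay between 1.52 and 1.75 with rTFF2 and between 1.64 and 1.86 with GM-CSF alone. It was therefore at background on all 8 arrays and gives no reading of the gene, and the x in its name marks a probe set that may share sequence with other transcripts.

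*Mertk*, in contrast, rose by a small and even step. The signals of probe set 1422869_at were 6.74, 6.91, 6.80 and 6.84 with rTFF2, against 6.06, 5.94, 5.96 and 5.97 with GM-CSF alone. All rTFF2 cultures stood above all control cultures, and the cultures of a group lay within 0.2 of each other. The means were 6.82 ± 0.07 and 5.98 ± 0.05 (SD, n = 4 each), a difference of 0.84 (standard error 0.06) or 1.79-fold. The third receptor, *Tyro3*, was not detectable. Its probe sets lay between 1.95 and 2.58 with rTFF2 and between 1.97 and 2.66 with GM-CSF alone, all under the background level, so the TAM receptors that gave a signal in these cultures were *Axl* and *Mertk*, with differences of opposite sign.

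Among the bridging proteins of the TAM receptors, *Gas6* was above background only with rTFF2. Its probe set 1417399_at stood at 4.22, 3.75, 4.14 and 4.10 with rTFF2, and at 3.21, 3.02, 2.92 and 2.90 with GM-CSF alone. The control cultures were all under the background level and the rTFF2 cultures all above it, though not far. The difference of the signals as measured was 1.04 (standard error 0.12), 2.05-fold, and against the background level the rise was at least 1.57-fold. Adding 32 to each linear signal, a step that shrinks folds of dim genes, gave 1.21-fold. *Pros1*, whose protein also serves as an anticoagulant cofactor, gave 3.87, 4.08, 3.44 and 3.56 with rTFF2 and 4.20, 4.02, 4.25 and 4.12 with GM-CSF alone. The groups overlapped through mouse 2, where the rTFF2 culture was not below its partner, and the difference of -0.41 (standard error 0.13) did not pass (adjusted p = 0.058 from limma). It passed without the rTFF2 culture of mouse 2 (-0.52, adjusted p = 0.014) and without both cultures of that mouse (-0.57, adjusted p = 0.011), and also with median centring, quantile scaling, array weights or a filter on dim probe sets (adjusted p between 0.034 and 0.050). It did not pass with the mouse as a block (adjusted p = 0.067) or with 32 added (adjusted p = 0.087). Nor did it pass with the *Actb* gap as a covariate (-0.56, adjusted p = 0.18). Leaving out any other single array gave adjusted p between 0.055 and 0.14.

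**Figure D1:**
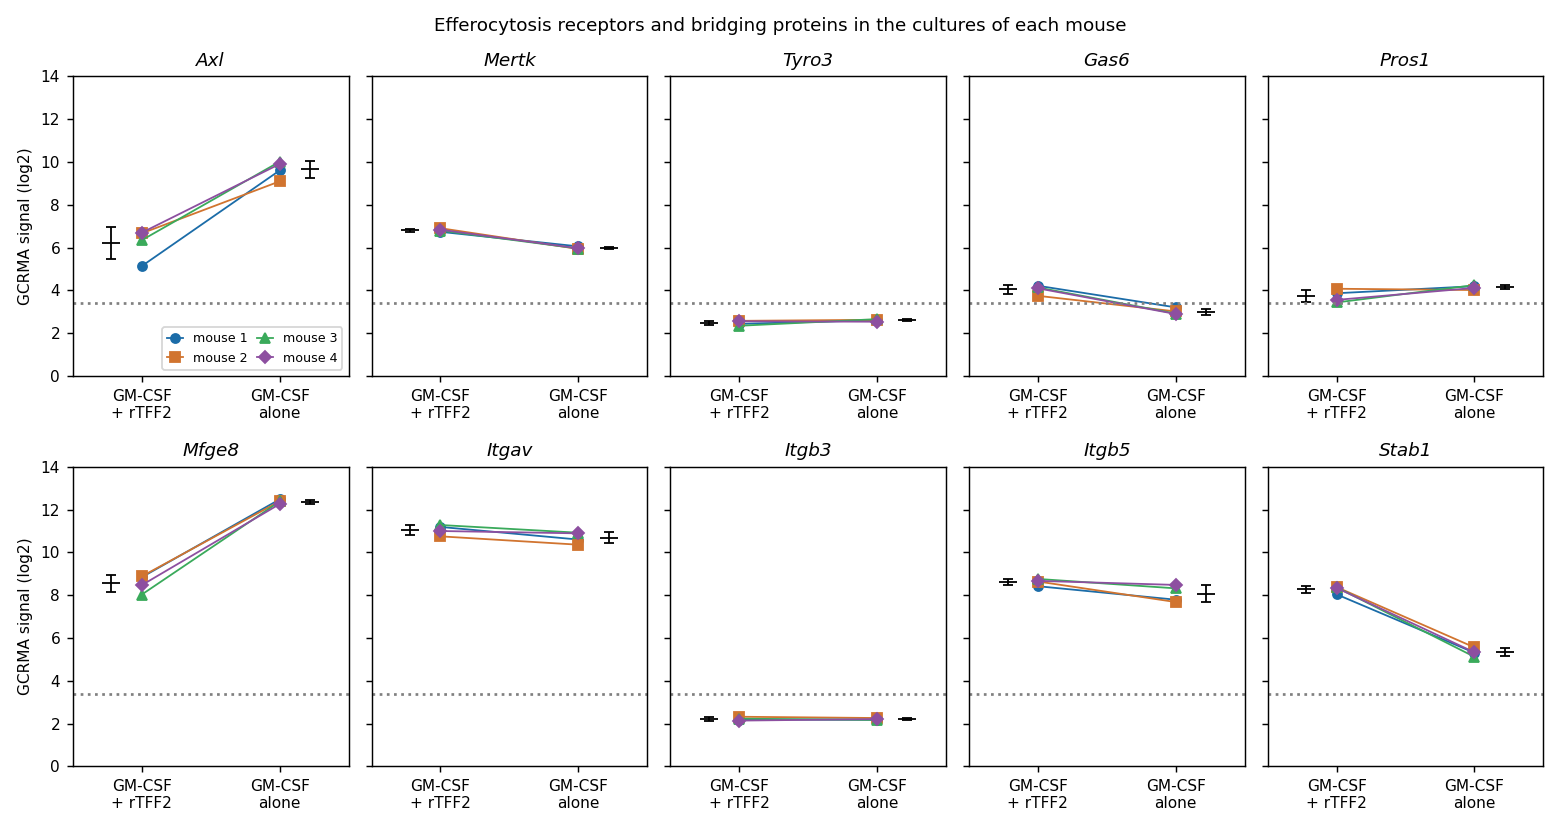
GCRMA signal (log2) of the 10 genes by group and mouse, using for each gene its probe set of highest mean. Lines join the cultures of 1 mouse, bars give mean and SD of n = 4, and the dotted line is the background level of 3.40. *Axl* and *Mfge8* lie lower and *Stab1*, *Mertk* and *Gas6* higher with rTFF2 in each mouse, and *Tyro3* and *Itgb3* lie under the line throughout.

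*Mfge8* had the steepest fall of the 10 genes. MFG-E8 is a secreted protein made by macrophages and dendritic cells. Probe set 1420911_a_at read 8.84, 8.88, 8.03 and 8.47 with rTFF2, against 12.48, 12.39, 12.38 and 12.26 with GM-CSF alone. The control cultures lay within 0.22 of each other and the rTFF2 cultures within 0.85, and 3.38 parted the nearest arrays of the groups. The means were 8.55 ± 0.40 with rTFF2 and 12.38 ± 0.09 with GM-CSF alone (SD, n = 4 each), which is a difference of -3.82 (standard error 0.17) or 14.1-fold. The fall lay between 3.51 in mouse 2 and 4.35 in mouse 3, and the mean difference stayed between -3.93 and -3.65 on leaving out any 1 array.

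None of the integrin genes that partner MFG-E8 fell. For *Itgav*, which encodes the αv chain, probe set 1452784_at gave 11.19, 10.75, 11.28 and 11.00 with rTFF2 and 10.60, 10.36, 10.92 and 10.89 with GM-CSF alone. The groups overlapped, while within each of the 4 mice the rTFF2 culture was the higher, by 0.11 to 0.59. The mean difference of 0.36 (standard error 0.15) did not pass without the pairing (adjusted p = 0.13) and passed with the mouse as a block (adjusted p = 0.027). With the *Actb* gap as a covariate it was 0.02 (adjusted p = 0.97). A dimmer probe set of the gene, 1421198_at, read 4.32, 3.89, 4.30 and 4.20 with rTFF2 and 3.88, 3.68, 3.66 and 3.78 with GM-CSF alone. Its groups were parted by only 0.01, and it rose by 0.43 (standard error 0.10, adjusted p = 0.018). Without the rTFF2 culture of mouse 1 or of mouse 3 it did not pass (adjusted p = 0.053 and 0.055), nor with the *Actb* gap as a covariate (0.55, adjusted p = 0.097). The remaining probe set, 1432296_a_at, was at background in both groups.

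*Itgb5*, which encodes the β5 chain, was read by 4 probe sets, and all 4 were higher with rTFF2 in 4 of 4 mice. Among them 1456195_x_at and 1456133_x_at carry the x that marks possible shared sequence with other transcripts. The counts by gene used 1456195_x_at. For 1417534_at the signals were 7.38, 7.54, 7.71 and 7.79 with rTFF2, against 6.69, 6.61, 7.08 and 7.08 with GM-CSF alone. The groups did not overlap, and the control cultures of mice 1 and 2 lay below those of mice 3 and 4, as they did for the other 3 probe sets of the gene. The mean difference was 0.74 (standard error 0.14) and it passed. Of the others, 1456133_x_at rose by 0.89 (standard error 0.25, adjusted p = 0.030), and lost its call without the rTFF2 culture of mouse 2, 3 or 4 or the control culture of mouse 1 or 2, without both cultures of mouse 2 and with 32 added, at adjusted p between 0.053 and 0.088. The brightest, 1456195_x_at, differed by 0.55 (adjusted p = 0.052) and passed with array weights, another prior or the filter (adjusted p between 0.038 and 0.042), and without the control culture of mouse 3 (0.64, adjusted p = 0.048) or of mouse 4 (0.69, adjusted p = 0.019), and 1417533_a_at differed by 0.61 (adjusted p = 0.16). With the mouse as a block all 4 passed (adjusted p between 0.0009 and 0.026). The arrays with the lowest *Itgb5* were those with the lowest *Actb* gap, 0.48 and 0.42 in the control cultures of mice 1 and 2. With that gap as a covariate the 4 values were 0.36 for 1417534_at, -0.01 for 1456133_x_at, -0.07 for 1456195_x_at and -0.32 for 1417533_a_at, and none passed (adjusted p between 0.26 and 0.99).

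**Figure D2:**
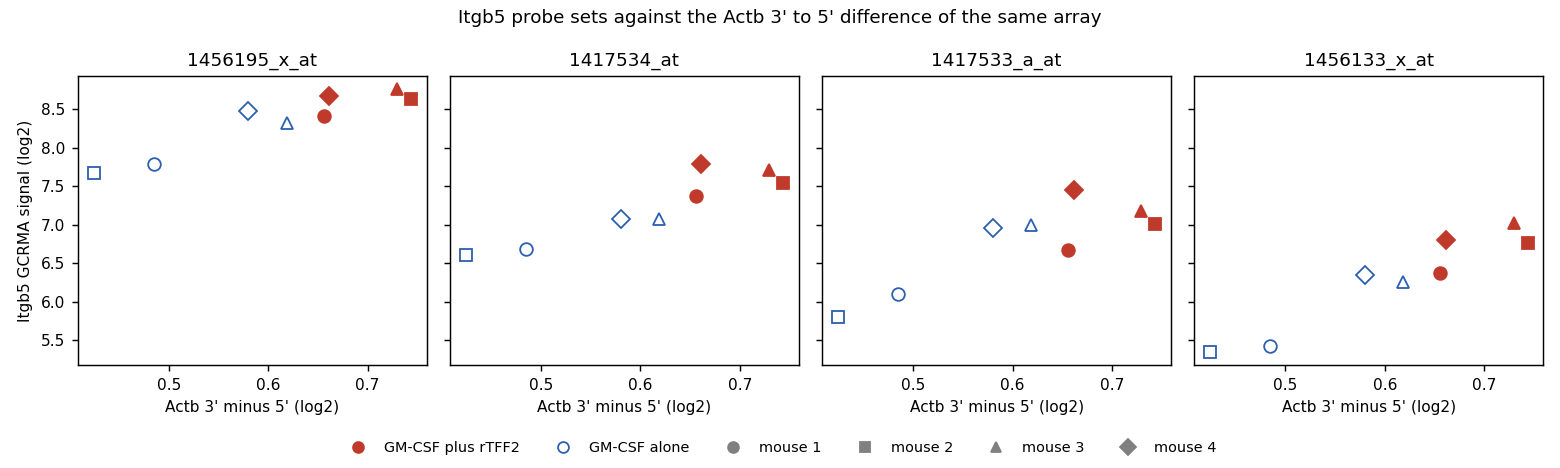
GCRMA signal (log2) of the 4 *Itgb5* probe sets against the *Actb* gap, 3′ minus 5′ (log2), on the same array, 1 point per array. Filled red points are rTFF2 cultures, open blue points control cultures, and symbols give the mouse. The control cultures of mice 1 and 2, at 0.48 and 0.42 on the horizontal axis, have the lowest *Itgb5* signal for each probe set.

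*Itgb3*, the β3 chain that pairs with αv and also with the platelet integrin chain αIIb, was not detectable. Probe set 1421511_at read 2.14 to 2.32 with rTFF2 and 2.17 to 2.26 with GM-CSF alone. Of the integrin β chains known to bind MFG-E8, these arrays gave a signal for *Itgb5* and none above background for *Itgb3*.

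*Stab1* had the largest rise of the 10 genes. Probe set 1450199_a_at stood at 8.04, 8.38, 8.37 and 8.34 with rTFF2, against 5.31, 5.56, 5.12 and 5.33 with GM-CSF alone. The groups were 2.48 apart, and the rTFF2 culture of mouse 1 was the lowest of its group. The means were 8.28 ± 0.16 and 5.33 ± 0.18 (SD, n = 4 each), a difference of 2.95 (standard error 0.11) or 7.73-fold, between 2.73 and 3.24 within a mouse, and 4.75-fold after the same addition of 32. Stabilin-1 is known from sinusoidal endothelium and from macrophages. Of 11 endothelial and stromal genes, 10 lay at background in both groups, among them *Stab2*, *Lyve1*, *Cdh5* and *Kdr*, which mark such endothelium. The exception, *Pecam1*, is also made by leukocytes and had 4.27 ± 0.55 with rTFF2 and 3.49 ± 0.33 with GM-CSF alone (SD, n = 4 each). Which cells gave the *Stab1* signal was not tested.

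**Figure D3:**
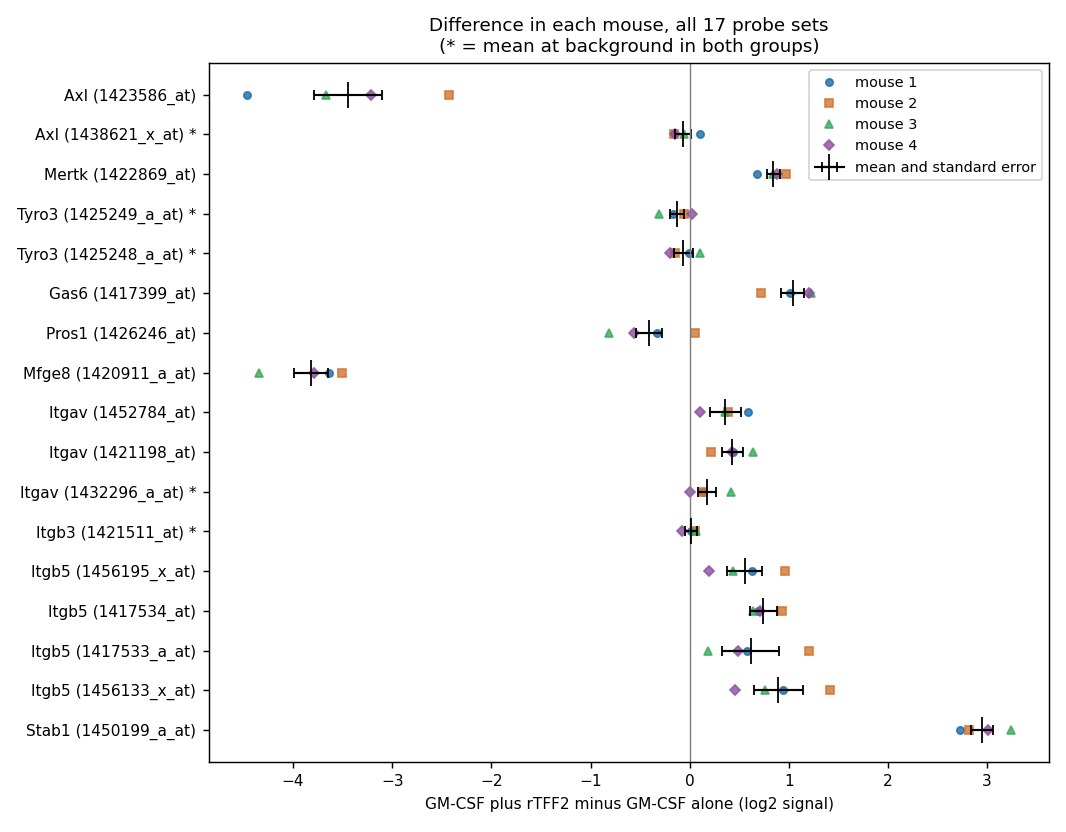
Difference in log2 signal, rTFF2 culture minus control culture, for each of the 17 probe sets. Coloured symbols are the 4 mice, and black bars give the mean and its standard error from limma. *Axl* 1423586_at and *Mfge8* lie near -3.44 and -3.82, *Stab1* near 2.95, and the 5 probe sets marked with a star were at background in both groups.

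By the likeness of their signals over the 8 arrays, the genes nearest to *Axl* were *Cep55* (Pearson r = 0.996), *Chn2* (0.996) and *Herpud1* (0.994), and those nearest to *Mertk* were *Slpi* (0.990), *Ctla2b* (0.988) and *Pon3* (0.987), among 1651 genes with a mean above background and a range of at least 1. These 8 points share the split into groups, which sets most of each value, so the list is a description. *Cep55*, a gene of cell division, differed by -1.23, and *Slpi*, which encodes an inhibitor of leukocyte elastase, by 1.46.

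Other genes of apoptotic cell clearance were listed by their role, 108 in all, of which 91 were measured. Of these 21 rose and 9 fell, against 12.4% of all genes higher and 11.2% lower. Their median difference was 0.10, against -0.03 over all genes. With blocking on mouse 26 of them rose and 12 fell. Over all probe sets, not genes, calls went from 4927 to 5811, 3095 of them higher and 2716 lower. Among 13 other receptors for apoptotic cells, 4 rose and 3 fell. The largest fall was that of *Cd36*, a scavenger receptor that works with αv integrins, with 8.51, 9.0, 6.78 and 6.90 in the rTFF2 cultures, against 10.53, 10.43, 10.10 and 10.06 with GM-CSF alone. The rTFF2 cultures of mice 3 and 4 were the lowest, and the mean difference was -2.48 (standard error 0.46, adjusted p = 0.0053), which did not pass with the *Actb* gap as a covariate (-2.32, adjusted p = 0.12). Other *Cd36* probe sets gave -2.50 to -0.63. *Itgax*, the CD11c chain of a complement receptor, fell by 1.19 and was no longer called without the rTFF2 culture of mouse 3 or the control culture of mouse 1, 3 or 4 (adjusted p between 0.054 and 0.058). *Lrp1*, a receptor that takes up calreticulin-marked cells, rose by 0.89 (standard error 0.08), as did the scavenger receptor *Msr1* (0.85) and the lipopolysaccharide co-receptor *Cd14* (0.83). *Itgam*, the CD11b chain of a complement receptor, rose by 0.37, and *Adgrb1*, a phosphatidylserine receptor, fell by 0.27 while at background in both groups, both named after their values were seen. The call of *Cd14* was lost without the rTFF2 culture of mouse 1 or 3 (adjusted p = 0.056 and 0.058).

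Other bridging proteins and opsonins shifted as unevenly, with 2 of 13 higher and 4 lower, against 12.4% of all genes higher and 11.2% lower. *C1qa*, a chain of complement C1q, read 6.78, 5.55, 7.29 and 7.37 with rTFF2 and 10.17, 8.26, 10.11 and 10.11 with GM-CSF alone. Both cultures of mouse 2 stood below the others of their group, and the groups did not overlap. Its difference was -2.91 (standard error 0.51) and that of *C1qb*, another chain, was -1.58. *Ptx3*, a soluble pattern recognition protein, fell by 2.89 (standard error 0.19). *Tub*, a bridging protein for *Mertk*, fell by 0.25 at background in both groups and is named after its value was seen. *Thbs1*, whose product thrombospondin-1 links apoptotic cells to CD36 and αv integrins, rose by 0.51. *Edil3*, a relative of *Mfge8* that also binds αv integrins, was at background with GM-CSF alone and rose by 0.93, at least 1.35-fold, while its other probe sets gave 0.19 and 0.31. The calls of *Thbs1* and *Edil3* were lost with the *Actb* gap as a covariate (adjusted p = 0.22 and 0.36).

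Genes that act inside the phagocyte are read against 12.4% of all genes higher and 11.2% lower. Of 15 engulfment signalling genes 2 rose, *Crk* (0.42), an adaptor upstream of Rac, and *Dock1* (0.23), a Rac activator, and none fell. Another probe set of *Crk* gave -0.03. *Dock1* did not pass with the mouse as a block (adjusted p = 0.059), nor without the rTFF2 culture of mouse 1 or 2 or the control culture of mouse 1, 2 or 4 (adjusted p between 0.052 and 0.080). Of 12 genes of corpse digestion and LC3-associated phagocytosis 2 rose, the lysosomal membrane gene *Lamp1* (0.42) and the LC3 gene *Map1lc3b* (0.39), and none fell. None of the 4 measured genes of phosphatidylserine exposure was called by its probe set of highest mean. Among them *Tmem30a* differed by 0.12, while another of its probe sets gave 0.68. Among 9 genes of TAM receptor shedding, ligand carboxylation and feedback, 4 rose and none fell. These were *Ifnar1* (0.88), a chain of the type I interferon receptor with which TAM receptors signal, the cytokine feedback inhibitors *Socs3* (0.81) and *Socs1* (0.80), which TAM signalling is known to induce, and *Adam17* (0.40), named after its value was seen, a protease that sheds Mertk from the cell surface. *Ggcx*, the carboxylase that Gas6 and protein S need, was at background in both groups.

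Of 11 find-me and do-not-eat-me genes, 3 rose and 1 fell, against 12.4% of all genes higher and 11.2% lower. The rises were *S1pr1* (1.25), a receptor for the find-me lipid sphingosine 1-phosphate that was at background with GM-CSF alone (at least 1.56-fold, and a difference of 0.32 with 32 added), *Cd47* (0.44), a do-not-eat-me signal, and its receptor *Sirpa* (0.40). *Cd47* lost its call without the rTFF2 culture of mouse 3 (adjusted p = 0.058). The fall, named after its value was seen, was that of *Cx3cl1* (-0.55), at background in both groups. In the metabolic response to engulfment 4 of 14 rose and 1 fell, against the same shares of all genes. *Abca1*, which exports the cholesterol of engulfed cells, gave 11.99, 11.58, 12.08 and 11.88 with rTFF2 and 10.74, 9.19, 10.45 and 10.58 with GM-CSF alone. The control culture of mouse 2 was the lowest, and the mean difference was 1.64 (standard error 0.30). *Rxra*, a nuclear receptor, rose by 0.45 and is named after its value was seen. *Abca7*, a transporter related to *Abca1*, rose by 0.73 and *Tgfb1*, a cytokine released after engulfment, by 0.54, and *Odc1*, an enzyme of polyamine synthesis, fell by 0.43. *Arg1*, which encodes arginase 1 and is named after its value was seen, differed by 2.11 (standard error 1.61) and did not pass (adjusted p = 0.40), with the control culture of mouse 2 at 4.30. *Tgfb1* was not called without the control culture of mouse 1 or 4 (adjusted p = 0.060 and 0.064). *Itgax*, *Tgfb1* and *Edil3* also lost their calls with 32 added (adjusted p = 0.054, 0.057 and 0.061). With the *Actb* gap as a covariate 14 of the 91 genes passed, and among those named here *Abca1* (1.00, adjusted p = 0.23), *Odc1*, *Tgfb1*, *Cd14*, *Cd47*, *Socs1*, *Lamp1*, *Map1lc3b*, *Dock1* and *Itgax* did not. As that gap parted the groups, a call lost in this fit is no separate reading of RNA quality.

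**Figure D4:**
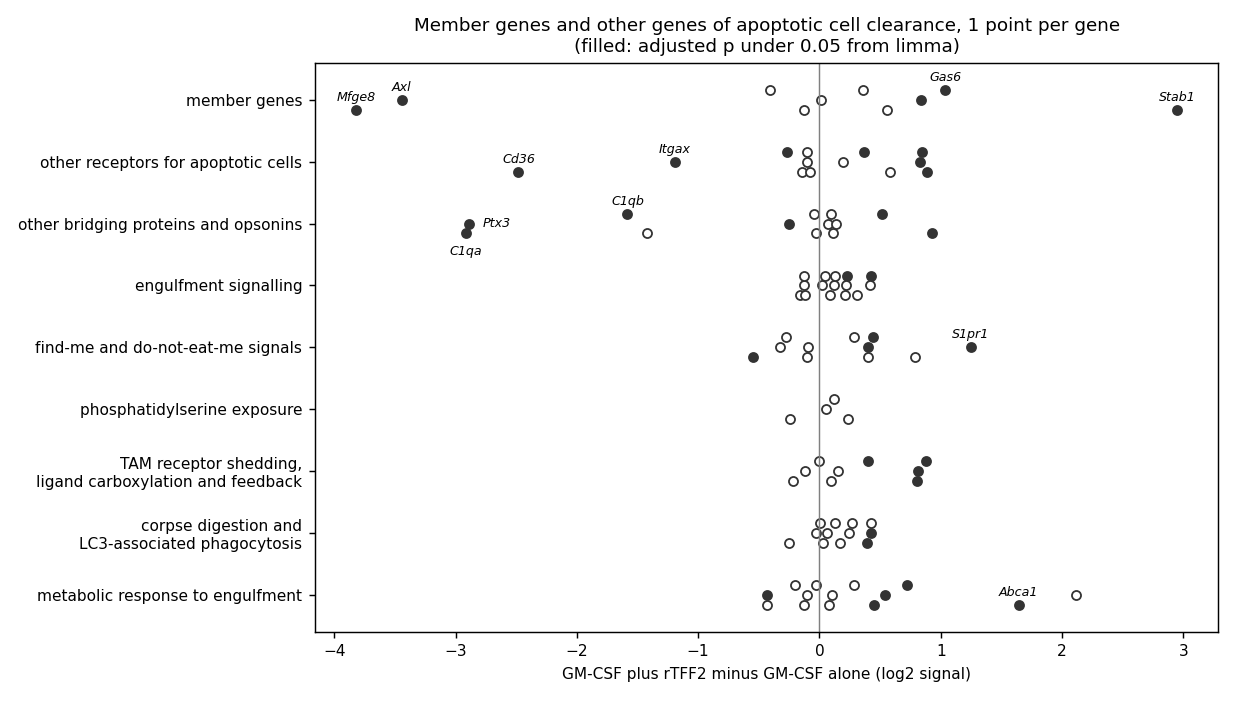
Log2 difference, rTFF2 cultures minus control cultures, of the 10 genes (top row, probe set of the highest mean) and of the 91 measured genes of 8 lists, 1 point per gene, with vertical spread only to part the points. Filled points had an adjusted p under 0.05 from limma, and names are given for filled points beyond 1 in either direction. *Mfge8* (-3.82) and *Axl* (-3.44) lie furthest to the left and *Stab1* (2.95) furthest to the right.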

How the data were processed

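Expression in 8 IMC cultures was measured on Affymetrix mouse arrays, 1 array each. The deposited log2 signals are the authors' own GCRMA output (versions in the submitters' notes were 2.30.0 for GCRMA and 1.36.0 for affy). GCRMA corrects background by probe sequence, equalizes the arrays and summarizes each probe set, so the folds of dim genes depend on it. Scanner files were not used here. Groups and mouse numbers came from the sample titles. Without 64 control probe sets, 22626 remained and were fitted with limma 3.58.1 in R 4.3.3, 4 arrays against 4 without pairing, as the methods name limma and do not say whether the mice were paired, with Benjamini-Hochberg adjustment and a threshold of 0.05. This fit called 4927 probe sets. Blocked on mouse, it called 5811, which is close to the number of transcripts that the study reports at a false discovery rate under 0.05. Per the labels, sorted cells were shared out between both conditions, and cultures with the same title number were taken as 1 mouse, which the labels do not spell out. Deviations from the group means correlated within mice 1 to 4 at 0.04, 0.54, 0.32 and 0.39, and blocking on mouse was an alternative, beside other scalings, an offset, a filter, another prior, array weights, leaving out arrays, a covariate and a stricter threshold. The fit was tested on simulated data with independent noise and no mouse effect, so that run cannot speak to the lack of pairing. The members and lists were chosen with earlier results of these data known. Named are all member probe sets, up to 3 genes in each direction of each role list by size, and the 3 genes most like *Axl* and *Mertk*. The background level was 3.40, and 3.35 without *Mbp*, which gave a mean of 8.26 in these cells. The 17 probe sets stood on the same side of either level. Array number, 4 in each group, limits the precision.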

Additional observations from a re-analysis of the deposited data

Results flagged for a closer look

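Of 82 groups of 4 arrays examined, among the 17 member probe sets and the named genes of the other lists, 4 held an array that stood far from the other 3, and chance flags about 1 in 20 groups. The rTFF2 culture of mouse 1 had the lowest *Stab1* signal of its group, 8.04, against 8.34 to 8.38 in the others. The control culture of mouse 2 had the lowest *C1qa* signal with GM-CSF alone, 8.26, against 10.11 to 10.17. The rTFF2 culture of mouse 2 had the lowest *Ifnar1* signal of its group, 7.74, against 8.25 to 8.34. The rTFF2 culture of mouse 4 had the lowest *Map1lc3b* signal of its group, 12.29, against 12.45 to 12.48.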

How the results depend on the processing

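The differences of *Axl* (1423586_at), *Mertk*, *Gas6*, *Mfge8* and *Stab1* kept their direction and their call in every alternative run. With the mouse as a replicate block 5 member genes rose in place of 3, *Itgav* and *Itgb5* being the added ones, and 5 rose when the probe sets of a gene were averaged. Of all probe sets 3095 rose with that block in place of 2636. With the *Actb* gap as a covariate 5 member probe sets passed, 3 of them higher, and 14 wider pathway genes, 9 higher and 5 lower. In that fit 2295 of all probe sets passed, 1216 higher and 1079 lower. The gap did not overlap between the groups, so calls lost there can reflect a wider standard error. At a threshold of 0.01, 19 wider pathway genes passed, 5 of them lower, and 2417 probe sets in all, 1375 higher and 1042 lower. With median centring 14 wider pathway genes fell, and 41.9% of all calls were higher, against 53.5% as deposited, while the median of all probe sets moved from -0.02 to -0.07. Among the 17 probe sets and the 24 genes of the role lists named by size, signs turned for *Tyro3* and *Itgb3*, at background, and for *Itgb5*. Genes named after their values were seen, *Pecam1* and the genes most like *Axl* and *Mertk* were not examined in this way. *Itgb5* turned with the *Actb* covariate, at -0.07 (1456195_x_at), -0.32 (1417533_a_at) and -0.01 (1456133_x_at). *Tyro3* (1425248_a_at) was at 0.04 with the *Actb* covariate and between -0.11 and 0.01 on leaving out any 1 array. *Itgb3* was at -0.04 with median centring, at -0.00 without both arrays of mouse 2, and between -0.02 and 0.04 on leaving out any 1 array. The causes were not tested. Signals near the background level, as for *Gas6* and *Pros1*, limit what their folds can show.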
